A study of Mus musculus with 7 samples.

Results

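Cadherins, claudins and the genes of epithelial cell junctions were examined in mini-oocytes, which resemble oocytes and arise from mouse embryonic stem cells (mESCs) on forced expression of oocyte transcription factors. The 10 genes were chosen by symbol among the 55364 genes listed: the cadherins Cdh1, Cdh2 and Cdh3, the adhesion molecule Epcam, the claudins Cldn3, Cldn4, Cldn6 and Cldn7, and the tight junction genes Ocln and Tjp1. RNA-seq was available for 4F-mini-oocytes at day 7 (n = 2), 4F-mini-oocytes at day 21 (n = 3) and 8F-mini-oocytes at day 21 (n = 2). In 4F-mini-oocytes the factors were Nobox, Figla, Tbpl2 and Lhx8, and in 8F-mini-oocytes Stat3, Dynll1, Sub1 and Sohlh1 were added. All groups came from the female BVSC H18 mESC line of a hybrid 129/C57BL6 strain, and all carried their factors as fusions to a destabilization domain that Shield-1 stabilises. The 4F- and 8F-mESCs were separate lines derived from BVSC H18, and the paper describes an Npm2-mCherry reporter cassette in the 8F-mESCs. All were grown without gonadal somatic cells on laminin and poly-L-ornithine, in medium with serum, stem cell factor and the ROCK inhibitor Y-27632. Shield-1 was left out of fresh medium from day 12, which is after the day 7 samples and before the day 21 samples. Each day 7 sample was a pool of 1000 cells and each day 21 sample a pool of 10 cells. Pool size and the withdrawal of Shield-1 therefore changed together with the day of culture. The sources used here do not say whether replicates were separate inductions, and p-values therefore measure only the spread between these samples, which may be technical.

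Adherens junctions hold neighbouring cells together through classical cadherins, whose cytoplasmic tails bind catenins and through them the actin cytoskeleton. Tight junctions lie apical to them in epithelia and seal the space between cells with strands of claudins, which are tied to the cytoskeleton by scaffold proteins such as ZO-1. Growing oocytes are not epithelial cells, but they keep cadherin-based contacts with the follicle cells around them.

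Levels are given in TPM, a unit in which a gene's reads are divided by its exon length and every library is brought to an equal total, so that genes can be compared with each other. The libraries held 9051761 to 17190271 reads on genes, and 3 reads of a member corresponded to between 0.064 and 0.607 TPM. The mini-oocyte label was compared with 10 oocyte markers, whose summed level was 8873 to 10862 TPM at day 7, 37555 to 42310 TPM in 4F-mini-oocytes at day 21 and 30062 to 30469 TPM in 8F-mini-oocytes. Of 10 trophoblast and other epithelium markers, the keratins Krt8 and Krt18 led, and the summed level of the list was 1195 and 1707 TPM in the day 7 libraries against 54.0 to 148.5 TPM in 4F-mini-oocytes and 38.4 and 46.8 TPM in 8F-mini-oocytes at day 21. These are pooled cells, so fewer cells of a type and less RNA per cell cannot be told apart.

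In all 3 groups the means of Cdh1, Tjp1 and Cdh3 were each higher than those of at least 95.6% of the genes listed. Mean Epcam was higher than that of 98.3% at day 7. Many listed genes were at or near 0: of 55364, between 17106 and 20007 reached 1 TPM in a library. Among the 10 genes, Cldn3 was at the low end in all 3 groups and Cdh2 at day 7 (shown in the plot of levels by library). Mean Cdh1 was higher than that of 98.2% to 98.6% of the genes listed. At day 7 the order of means was Cdh1, Tjp1, Epcam, Cdh3, Cldn4, Cldn6, Ocln, Cldn7, Cldn3 and Cdh2. Libraries of Cdh1 overlapped with those of Tjp1 in that order and Tjp1 with Epcam, as did Cldn7 with Cldn3 and Cldn3 with Cdh2, and the other neighbours were separate. In 4F-mini-oocytes at day 21 Epcam had moved below Cdh3 and next to Cldn4, with which it overlapped, and Cldn6 had moved to the ninth place. In 8F-mini-oocytes at day 21 the order was the same as in 4F-mini-oocytes at day 21 and no neighbours overlapped. The summed level of the 10 genes was 590.4 and 632.6 TPM at day 7, 576.1 to 629.1 TPM in 4F-mini-oocytes at day 21, and 433.3 and 497.2 TPM in 8F-mini-oocytes.

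**Figure D1:**
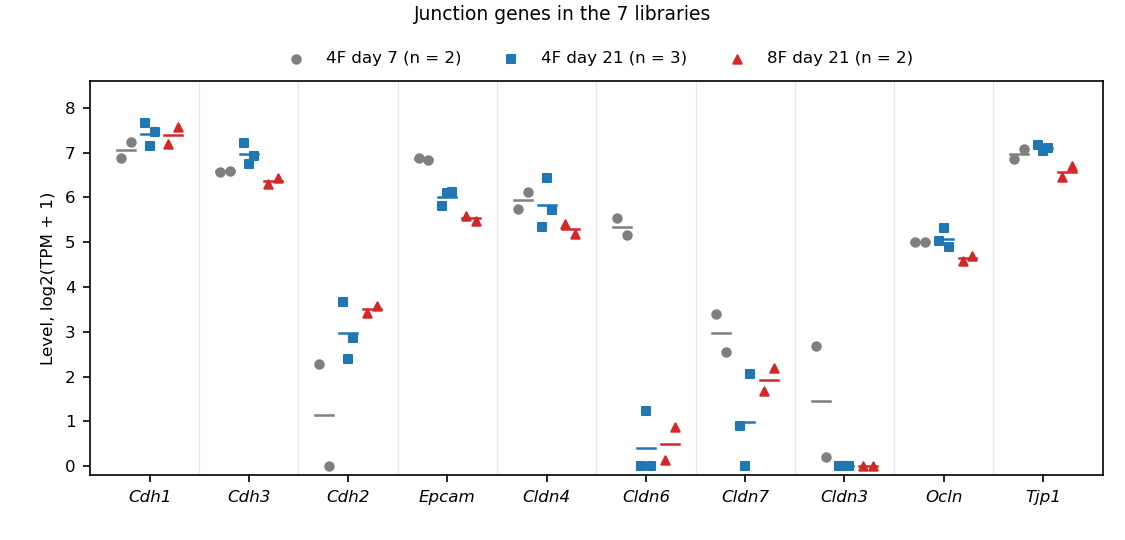
Level of each junction gene in the 7 libraries, as log2(TPM + 1) on the vertical axis. Points are libraries, short lines are group means, and colours and symbols mark 4F day 7, 4F day 21 and 8F day 21. Cldn6 lies above 5 in both day 7 libraries and below 1.5 in all 5 day 21 libraries, and Epcam steps down from 4F day 7 to 4F day 21, while Cdh1 overlaps among the 3 groups.

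The first comparison, 4F-mini-oocytes at day 21 against day 7, asks how the genes changed from the time when round cells appear to the end of induction. Of the 9 junction genes that passed the filter on low values, Cldn6 and Epcam fell and 0 rose (limma on log2(TPM + 1), FDR 0.05). Of the 21780 genes tested, 15.3% fell and 25.3% rose, 40.6% in either direction. Genes that rose made up 62.3% of these calls, against 37.7% with voom fitted to recovered reads, 52% under quantile normalization and 48.4% under median-of-ratios rescaling. At an unadjusted p under 0.05 the count was 5 of 9 genes, 3 lower and 2 higher, beside 48.6% of all genes tested. The median log2 change of the 9 genes was 0.08, against 0.17 over all genes tested.

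Cdh1 encodes E-cadherin, the main cadherin of epithelia and of mESCs. It was at 116.2 and 149.3 TPM in the day 7 libraries, at 200.5, 141.9 and 175.7 TPM in 4F-mini-oocytes at day 21 and at 145.7 and 189.4 TPM in 8F-mini-oocytes at day 21. The 3 groups overlapped. The log2 change from day 7 to day 21 in 4F-mini-oocytes was 0.37 (SE 0.20, 95% confidence interval -0.10 to 0.85, adjusted p = 0.185). Its sign was not stable: the change was -0.26 under quantile normalization, and -0.17 when recovered reads were fitted with voom, neither past FDR 0.05. Relative to the median of all genes the change of Cdh1 was 0.21 on the TPM scale, -0.3 with quantile normalization and 0.15 with voom.

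Cdh3 encodes P-cadherin, a classical cadherin named from the placenta, and its gene (chr8:106510891-106557297, mm10, plus strand) lies next to Cdh1 (chr8:106603351-106670246, plus strand). It was at 93.6 and 95.8 TPM at day 7 and at 146.7, 107.2 and 120.6 TPM in 4F-mini-oocytes at day 21, where all libraries were above both day 7 libraries. The log2 change was 0.38 (SE 0.15, adjusted p = 0.0844). It passed FDR 0.05 when replicate 2 of 4F at day 21 was left out (0.49, adjusted p = 0.0405), and turned to -0.23 with quantile normalization and to -0.14 with voom. Relative to the median of all genes the change of Cdh3 was 0.22 on the TPM scale, -0.27 with quantile normalization and 0.18 with voom. The ratio of Cdh3 to Cdh1 was 0.81 and 0.64 at day 7, 0.73, 0.76 and 0.69 in 4F-mini-oocytes at day 21, and 0.53 and 0.45 in 8F-mini-oocytes.

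Cdh2 encodes N-cadherin, the cadherin of neural and mesenchymal cells, which mouse oocytes and granulosa cells also carry. It was at 3.85 and 0 TPM at day 7, at 11.7, 4.22 and 6.30 TPM in 4F-mini-oocytes at day 21 and at 9.79 and 11.01 TPM in 8F-mini-oocytes. The library at 0 would have shown 0.071 TPM with 3 reads, a limit for counting error only. All day 21 libraries were above both day 7 libraries. The log2 change in 4F-mini-oocytes was 1.83 (SE 0.73, 95% confidence interval 0.09 to 3.58, adjusted p = 0.0893), and the day 7 replicates decided the call: without replicate 1 the change was 2.97 (adjusted p = 0.0140). Without replicate 2, the library at 0, it was 0.69 (adjusted p = 0.385). In every library Cdh2 made up between 0.0% and 4.2% of the summed level of the 3 cadherins, and Cdh1 between 54.4% and 66.2%.

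Epcam encodes an epithelial cell adhesion molecule that binds claudins at the cell surface and is abundant in mESCs. It was at 117.3 and 113.9 TPM at day 7, at 55.2, 67.1 and 69.1 TPM in 4F-mini-oocytes at day 21 and at 47.3 and 43.8 TPM in 8F-mini-oocytes. The groups did not overlap. From day 7 to day 21 in 4F-mini-oocytes it fell by 0.85 on the log2 scale (SE 0.13, 95% confidence interval -1.17 to -0.53, adjusted p = 0.00300), a ratio of means of 1.81. It passed FDR 0.05 in the same direction in all 18 alternative fits, in which the change lay between -1.44 and -0.75. Relative to Cdh1, Epcam went from ratios of 1.01 and 0.76 at day 7 to 0.28, 0.47 and 0.39 in 4F-mini-oocytes and 0.32 and 0.23 in 8F-mini-oocytes at day 21.

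Cldn6, a claudin of embryonic epithelia, showed the largest change of the 9 genes tested. It was at 45.5 and 34.7 TPM at day 7, corresponding to 307 and 312 reads. In 4F-mini-oocytes at day 21 it was at 0, 1.34 and 0 TPM, or 0, 10 and 0 reads, and in 8F-mini-oocytes at 0.1 and 0.823 TPM, or 1 and 8 reads. It fell by 4.94 on the log2 scale in 4F-mini-oocytes (SE 0.54, 95% confidence interval -6.22 to -3.66, adjusted p = 0.000708), passed FDR 0.05 in all 18 alternative fits, and ranked 164 of the 21780 genes tested by the size of its change. The fitted size depended on the pseudocount for a gene with libraries at 0, and ranged from -8.29 to -3.05 over these fits. Keratins and other epithelium markers moved the same way: 5 of the 7 tested markers of that list fell, beside 15.3% of all genes tested. Their log2 changes were -6.84 for Krt18, -6.12 for Krt19, -4.68 for Krt7, -3.59 for Krt8 and -3.30 for Gata3. The part of these markers in the fall of Cldn6 and Epcam was not tested. Of the other markers of the list, Tfap2c was at 16.6 and 21.6 TPM at day 7 and at 11.4 to 14.6 TPM in 4F-mini-oocytes at day 21 (adjusted p = 0.140), Eomes was at 2.33 and 0.968 TPM at day 7 (adjusted p = 0.636), and Wfdc2 was at 10.5 and 0.672 TPM at day 7 and at 0 in all day 21 libraries. Cdx2 and Elf5 were at 0 in both day 7 libraries.

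The other claudins among the members differed from Cldn6 in level and in course. Cldn4, an epithelial claudin, was at 52.3 and 69.1 TPM at day 7, at 39.7, 85.8 and 52.1 TPM in 4F-mini-oocytes at day 21 and at 41.6 and 35.3 TPM in 8F-mini-oocytes. Its groups at day 7 and day 21 of 4F-mini-oocytes overlapped, and the log2 change was -0.09 (SE 0.32, 95% confidence interval -0.86 to 0.67, adjusted p = 0.842), with its sign turning to 0.10 without day 7 replicate 2 and to 0.15 without replicate 1 of 4F at day 21. Cldn7, an epithelial claudin that binds Epcam, was at 9.61 and 4.82 TPM at day 7 and at 0.876, 0 and 3.18 TPM in 4F-mini-oocytes at day 21, with no overlap. Its log2 change was -1.98 (SE 0.67, adjusted p = 0.0552). Cldn7 passed FDR 0.05 in only 5 of 17 alternative fits, over which the change lay between -4.08 and -0.95. Those that passed included the fit without replicate 3 of 4F at day 21 (-2.52, adjusted p = 0.0182) and a pseudocount of 5 (-0.95). Voom (-4.08) and median-of-ratios rescaling (-2.23) were also among them. In 8F-mini-oocytes Cldn7 was at 2.20 and 3.54 TPM. Cldn3 was at 5.46 and 0.152 TPM at day 7, or 27 reads and 1 read, and was listed at 0 in all 5 day 21 libraries, where 3 reads would have given 0.409 to 0.568 TPM. It reached 1 TPM in 1 library alone and was therefore not tested. Cldn3 shares 40 exon bases with an antisense gene, Wbscr25, and the counting is not stated to use strand.

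The make-up of the claudin transcripts changed with these values. Cldn4 held 46.4% and 63.5% of the summed TPM of Cldn3, Cldn4, Cldn6 and Cldn7 at day 7, and Cldn6 held 40.3% and 31.9%. At day 21 Cldn4 held 97.8%, 98.5% and 94.2% in 4F-mini-oocytes, and 94.8% and 89.0% in 8F-mini-oocytes. The summed level of the 4 claudins was 112.9 and 108.8 TPM at day 7, 40.6, 87.2 and 55.2 TPM in 4F-mini-oocytes at day 21, and 43.9 and 39.6 TPM in 8F-mini-oocytes.

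**Figure D2:**
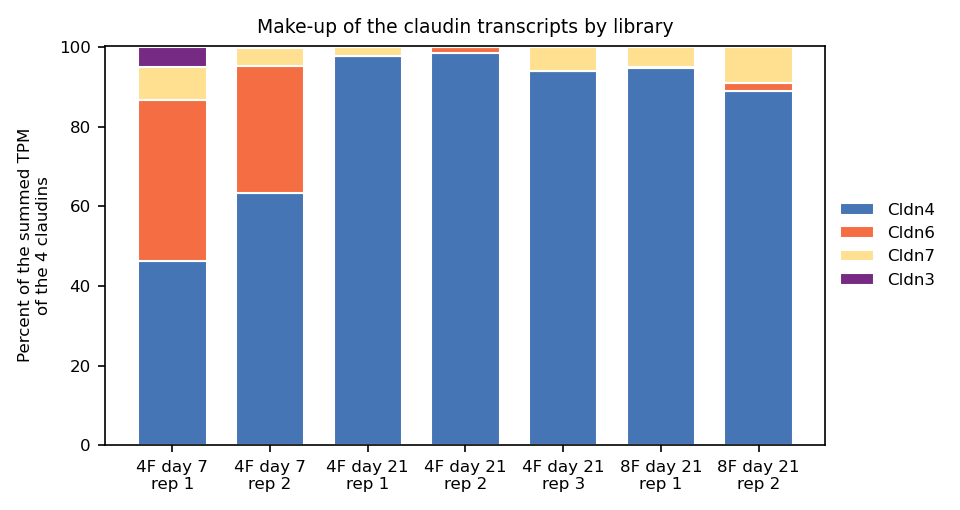
Share of each claudin in the summed TPM of Cldn3, Cldn4, Cldn6 and Cldn7, in percent on the vertical axis, with 1 bar for each library. Cldn6 takes 40.3% and 31.9% in the day 7 libraries and at most 2.1% in the day 21 libraries, in which Cldn4 takes 89.0% or more.

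Windows around the start of transcription are shown for Epcam and Cldn6, which fell, and for Cldn4, which did not pass the test. The set of RefSeq windows used here ran from 250 bases before to 50 bases after an annotated start, on GRCm38.p6 (mm10). It held 9 windows for 7 of the 10 genes. Cdh1, Cdh2 and Cdh3 had no window in this set and were not searched. The letters CACCTG (on the other strand they read CAGGTG), the E-box bound by Snail and Zeb repressors, were searched on both strands, as were ACCGGT, the palindromic centre of the Grainyhead-like consensus. Capitals mark matches, and the windows are chr17:87635729-87636028 (plus strand) for Epcam, chr17:23679115-23679414 (plus strand) for Cldn6 and chr5:134946885-134947184 (minus strand) for Cldn4, each written 5′ to 3′.
Epcam: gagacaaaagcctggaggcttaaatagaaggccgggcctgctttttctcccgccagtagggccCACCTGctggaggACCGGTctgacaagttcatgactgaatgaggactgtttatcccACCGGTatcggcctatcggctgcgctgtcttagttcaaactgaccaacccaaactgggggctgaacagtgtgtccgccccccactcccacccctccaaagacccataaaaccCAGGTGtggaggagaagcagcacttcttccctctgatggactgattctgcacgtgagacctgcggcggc
Cldn6: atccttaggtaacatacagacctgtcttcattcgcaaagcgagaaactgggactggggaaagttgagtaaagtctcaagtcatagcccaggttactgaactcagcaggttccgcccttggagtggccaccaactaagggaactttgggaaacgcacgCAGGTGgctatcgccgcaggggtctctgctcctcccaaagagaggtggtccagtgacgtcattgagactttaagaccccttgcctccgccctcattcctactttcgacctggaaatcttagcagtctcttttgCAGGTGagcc
Cldn4: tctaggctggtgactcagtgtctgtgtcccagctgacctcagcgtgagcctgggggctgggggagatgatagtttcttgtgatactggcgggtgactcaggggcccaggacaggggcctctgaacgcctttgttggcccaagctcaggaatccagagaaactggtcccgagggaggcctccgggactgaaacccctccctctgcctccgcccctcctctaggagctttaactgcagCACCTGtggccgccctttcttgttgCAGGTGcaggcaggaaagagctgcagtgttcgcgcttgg
Each of the 3 windows held 2 E-boxes, and that of Epcam also held 2 copies of ACCGGT. Over all 32851 windows the E-box was found in 20.2% and ACCGGT in 2.3%. Of the 9 windows of the members, 7 held the E-box and 1 held ACCGGT. The windows of Ocln overlap and have an E-box in common, so the windows are not independent, and this count was not tested against the share of all windows. A match is a description of the letters and not evidence of binding.

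Neither Ocln nor Tjp1 passed the test between the days. Ocln encodes occludin, a membrane protein of tight junctions, and was at 31.0 and 31.2 TPM at day 7 and at 31.8, 38.9 and 28.6 TPM in 4F-mini-oocytes at day 21. Tjp1 encodes ZO-1, the scaffold that ties claudins and occludin to actin, and was at 115.6 and 133.7 TPM at day 7 and at 142.6, 129.6 and 136.1 TPM in 4F-mini-oocytes at day 21. The groups overlapped for both genes. The log2 change of Ocln was 0.08 (SE 0.17, 95% confidence interval -0.34 to 0.49, adjusted p = 0.761) and that of Tjp1 was 0.13 (SE 0.12, 95% confidence interval -0.17 to 0.42, adjusted p = 0.450). Their sign differed between scalings. The change of Ocln was -0.32 with quantile normalization and -0.46 with voom, and the median of all genes was 0.17 on the TPM scale, 0.04 with quantile normalization and -0.32 with voom. Tjp1 was lower past FDR 0.05 with quantile normalization (-0.49) and with voom (-0.41), and relative to the median of all genes its change was -0.04 on the TPM scale, -0.53 with quantile normalization and -0.10 with voom.

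**Figure D3:**
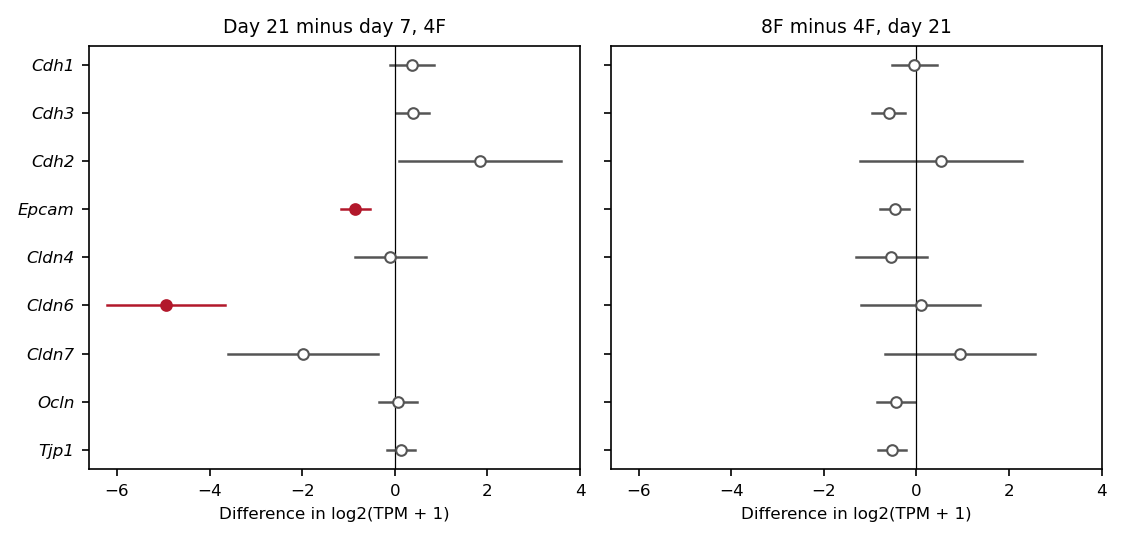
Difference in log2(TPM + 1) for the 9 genes tested, for day 21 minus day 7 in 4F-mini-oocytes (left) and 8F minus 4F at day 21 (right). Circles are estimates, lines are 95% confidence intervals, and filled red circles passed FDR 0.05. Epcam and Cldn6 are filled on the left and no gene is filled on the right, where Cdh3, Epcam, Ocln and Tjp1 lie below 0 with intervals that do not reach it.

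The second comparison, 8F-mini-oocytes against 4F-mini-oocytes of the same day, asks how the groups with and without the added factors differ. At FDR 0.05 limma called 0 of the 9 genes, beside 3.95% of all genes tested called higher and 4.41% called lower, 8.37% in either direction. Genes that were higher made up 47.3% of these calls, and 62.2% with voom. At an unadjusted p under 0.05 the count was 4 of 9 genes, all lower in 8F-mini-oocytes, beside 22.3% of all genes tested in either direction. The median log2 difference of the 9 genes was -0.44, against 0.06 over all genes tested. The 4F and 8F libraries also came from different mESC lines, and their deposited values carry different numbers of decimals. Cell line, processing and factor set therefore cannot be told apart.

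These 4 genes were Tjp1, Cdh3, Epcam and Ocln, and for each of them both 8F libraries lay below all 3 4F libraries of day 21. They had been picked by their p-values from the same libraries, so this lack of overlap adds no further support. Tjp1 was at 86.4 and 102.8 TPM in 8F-mini-oocytes, a log2 difference of -0.52 (SE 0.12, 95% confidence interval -0.82 to -0.23, adjusted p = 0.0512). Tjp1 passed FDR 0.05 in only 6 of 18 alternative fits, over which the difference lay between -0.65 and -0.39. Those that passed included a filter of 5 TPM (adjusted p = 0.0432) and a fit of both day 21 groups alone (adjusted p = 0.0408). It did not pass with median-of-ratios rescaling (adjusted p = 0.0723) or quantile normalization (adjusted p = 0.0747). Cdh3 was at 77.4 and 85.6 TPM in 8F-mini-oocytes, a log2 difference of -0.60 (SE 0.15, adjusted p = 0.0606). Epcam differed by -0.47 (SE 0.13, adjusted p = 0.0875). Ocln, at 22.9 and 25.0 TPM, differed by -0.44 (SE 0.17, adjusted p = 0.195). Cdh1 differed by -0.04 (95% confidence interval -0.52 to 0.44, adjusted p = 0.946), an interval that allows a difference in either direction. Intervals were wider for Cldn4 (-0.54, 95% confidence interval -1.31 to 0.22), Cldn7 (0.94, -0.67 to 2.55), Cldn6 (0.09, -1.19 to 1.38) and Cdh2 (0.54, -1.21 to 2.28).

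Because no 8F libraries of day 7 were analysed here, 8F-mini-oocytes at day 21 were also set against 4F-mini-oocytes at day 7, a comparison that shares its day 7 libraries with the first one. Limma called Cldn6 and Epcam lower and 0 of the 9 genes higher, beside 13% of all genes tested called lower and 24.2% called higher, 37.2% in either direction. Genes that were higher made up 65.1% of these calls, against 47.4% with voom, 51.1% under quantile normalization and 51.3% under median-of-ratios rescaling. At an unadjusted p under 0.05 the count was 4 of 9 genes, 3 lower and 1 higher, beside 47% of all genes tested. Cldn6 fell by 4.85 on the log2 scale (SE 0.59, adjusted p = 0.00141) and Epcam by 1.33 (SE 0.15, adjusted p = 0.00101), a ratio of means of 2.54. Cdh2 had a log2 difference of 2.37 (SE 0.80, adjusted p = 0.0575), which passed FDR 0.05 without day 7 replicate 1 (3.51, adjusted p = 0.0114) and was 1.23 without day 7 replicate 2, the library at 0 (adjusted p = 0.172). Tjp1, Ocln and Cdh3 had log2 differences of -0.40, -0.37 and -0.22 that did not pass FDR 0.05, and all 3 passed it as lower under each of the 3 other scalings (-0.72, -0.69 and -0.54 by median of ratios).

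Partners of the members were followed as lists, from day 7 to day 21 of 4F-mini-oocytes. Among catenins and adherens junction partners 1 of 10 tested genes rose and 3 fell (median log2 change -0.22, against 0.17 over all genes tested), beside 25.3% and 15.3% of all genes tested. The number that fell was 5 of 10 with median-of-ratios rescaling, 6 of 10 with quantile normalization and 6 of 8 with voom, and the number that rose was 1, 2 and 0. Afdn, the afadin that links nectins to actin, rose by 1.08 on the log2 scale (SE 0.11, adjusted p = 0.000522), from 123.6 and 133.2 TPM to 281.9, 255.8 and 281.6 TPM. Ctnnd1, the p120-catenin that holds cadherins at the membrane, fell by 0.98 (adjusted p = 0.0121), and its adjusted p was 0.05997 without day 7 replicate 2. Plekha7, which joins p120-catenin to microtubules, fell by 2.08 (adjusted p = 0.00715), and Vcl, which encodes vinculin, by 0.69 (adjusted p = 0.00516). Between 8F and 4F at day 21 Afdn was lower in 8F-mini-oocytes by 0.58 (adjusted p = 0.0264), a call that was lost without either 8F library (adjusted p = 0.293 and 0.136) and without replicate 1 or replicate 3 of 4F at day 21. Ctnnb1, the β-catenin that binds the tails of the cadherins, was at 116.1 and 139.6 TPM at day 7 and at 100.1, 95.7 and 103.5 TPM at day 21, a log2 change of -0.35 (adjusted p = 0.0554).

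Of 7 tested classical cadherins outside the members, 2 rose and 1 fell, beside 25.3% and 15.3% of all genes tested. Cdh4, which encodes R-cadherin, was at 0.105 and 0 TPM at day 7, at 12.9, 15.1 and 19.1 TPM in 4F-mini-oocytes at day 21 and at 11.1 and 10.997 TPM in 8F-mini-oocytes, a log2 change of 3.97 in 4F-mini-oocytes (SE 0.32, adjusted p = 0.000255). Cdh4 thus reached a level above that of Cdh2 in every 4F library of day 21. Cdh20 rose by 1.43 (adjusted p = 0.0127) and Cdh24 fell by 1.01 (adjusted p = 0.0372). Cdh20 lost its call without either day 7 library (adjusted p = 0.0657 and 0.0646), and Cdh24 lost its call when any 1 of the 7 libraries was left out except day 7 replicate 2, with an adjusted p of 0.198 without day 7 replicate 1. Of 7 tested claudins outside the members only Cldn15 was called, beside 40.6% of all genes tested in either direction. It was lower by 1.97 (adjusted p = 0.0191), from 6.12 and 1.44 TPM to 0, 0.217 and 0 TPM. Cldn8 and Cldn12 had the highest means of that list over the 7 libraries, with Cldn8 at 5.97 to 16.3 TPM and Cldn12 at 7.88 to 19.2 TPM. In single day 7 libraries other claudins were higher, with Cldn20 at 20.85 TPM in replicate 1 and 1.74 TPM in replicate 2, and Cldn9 at 1.94 and 10.09 TPM.

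Among 14 tight junction membrane and scaffold partners 4 rose and 4 fell, beside 25.3% and 15.3% of all genes tested. The genes that rose encode cytoplasmic scaffolds: Magi3 by 1.23 (adjusted p = 0.00103), Cgn, which encodes cingulin, by 0.87 (adjusted p = 0.00571), Magi1 by 0.82 (adjusted p = 0.00477) and Cgnl1, which encodes paracingulin, by 0.68 (adjusted p = 0.00738). The call of Cgnl1 was lost with voom (0.15), quantile normalization (0.06) and median-of-ratios rescaling (0.33), that of Cgn with quantile normalization (0.43) and that of Magi1 with voom (0.33). The genes that fell were F11r, which encodes the junctional adhesion molecule JAM-A, Marveld3, which encodes a relative of occludin, Tjp3, which encodes ZO-3, and Jam3. F11r went from 23.9 and 14.5 TPM to 0.160, 2.51 and 2.33 TPM, a log2 change of -3.04 (adjusted p = 0.0100), which did not pass without day 7 replicate 1 (-2.70, adjusted p = 0.0567). Marveld3 fell by 1.98 (adjusted p = 0.0129), which did not pass without day 7 replicate 2 (adjusted p = 0.0545). Tjp3 fell by 1.88 (adjusted p = 0.0385), a call that was lost when any 1 library was left out except replicate 2 of 4F at day 21, with an adjusted p of 0.148 without day 7 replicate 1. Jam3 fell by 0.97 (adjusted p = 0.00796). Between 8F and 4F at day 21, Cgnl1 was lower in 8F-mini-oocytes by 0.90 (adjusted p = 0.0142) and Jam3 higher by 0.96 (adjusted p = 0.0329). Without either 8F library the adjusted p of Cgnl1 was 0.169 and 0.0826 and that of Jam3 was 0.351 and 0.214, and Jam3 also lost its call without any 1 of the 4F libraries of day 21.

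Of 13 apical-basal polarity genes, 5 rose and 2 fell from day 7 to day 21 in 4F-mini-oocytes, beside 25.3% and 15.3% of all genes tested. Patj, a scaffold of the Crumbs complex, rose by 2.72 (SE 0.18, adjusted p = 0.000120), from 23.8 and 15.6 TPM to 127.0, 134.8 and 136.0 TPM. Llgl1 rose by 1.46 (adjusted p = 0.00699), and with voom it did not pass FDR 0.05 (1.01). Dlg1 and Scrib, scaffolds of the basolateral side, fell by 0.83 (adjusted p = 0.00471) and 0.79 (adjusted p = 0.0483), and Scrib lost its call when any 1 library except day 7 replicate 2 was left out, with an adjusted p of 0.247 without day 7 replicate 1. With voom, which was not run for Patj and Pard3, 0 of the other 11 genes rose and 5 fell, beside a median of -0.32 over all genes. Patj passed FDR 0.05 in all 17 alternatives run for it, and Pard3 did not pass with median-of-ratios rescaling (0.29) or quantile normalization (0.01). Pard3, a scaffold of the Par complex, was lower in 8F- than in 4F-mini-oocytes at day 21 by 0.72 (adjusted p = 0.0155), and Mpp5 by 0.79 (adjusted p = 0.0406). Without either 8F library the adjusted p of Pard3 was 0.195 and 0.159 and that of Mpp5 was 0.368 and 0.235, and Mpp5 also lost its call without replicate 1 or replicate 2 of 4F at day 21.

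Desmosomes anchor keratin filaments, and 3 of 6 tested desmosome genes fell and 1 rose, beside 15.3% and 25.3% of all genes tested. Dsp, which encodes desmoplakin, the link to keratin, was at 133.8 and 148.9 TPM at day 7, at 53.0, 55.8 and 76.3 TPM in 4F-mini-oocytes at day 21 and at 19.1 and 27.0 TPM in 8F-mini-oocytes. Its log2 change between the days was -1.199 (SE 0.21, adjusted p = 0.00513) and was lower in 8F- than in 4F-mini-oocytes at day 21 by 1.38 (SE 0.21, adjusted p = 0.0162). The latter call was lost without either 8F library (adjusted p = 0.164 and 0.0781). Dsg2, a desmosomal cadherin, fell by 1.76 between the days (adjusted p = 0.0312), a call that was lost when any 1 library was left out except day 7 replicate 1 and replicate 2 of 4F at day 21, with an adjusted p of 0.156 without day 7 replicate 2. Pkp2, a desmosomal plakophilin, fell by 1.46 (adjusted p = 0.00488), whereas Pkp4, a plakophilin relative of p120-catenin, rose by 0.90 (adjusted p = 0.00142), to 0.28 and no call with quantile normalization. Of 5 tested genes known to work with Epcam, only the tetraspanin Cd9 was called, beside 40.6% of all genes tested in either direction. Cd9 was lower by 0.77 (adjusted p = 0.00389). Spint1, a protease inhibitor, was at 31.4 and 32.5 TPM at day 7 and at 43.5, 38.6 and 39.8 TPM at day 21 (adjusted p = 0.0788).

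Regulators of epithelial and mesenchymal identity moved in both directions. Of 9 epithelial transcription and splicing regulators 3 rose and 1 fell, beside 25.3% and 15.3% of all genes tested. Grhl3 rose from 1.83 and 1.10 TPM to 33.6, 29.5 and 23.3 TPM (log2 change 3.599, adjusted p = 0.000156). Grhl1 rose by 1.73 (adjusted p = 0.0147). Esrp1, an epithelial splicing factor, rose by 1.30 (adjusted p = 0.000609) to 389.4, 303.2 and 320.7 TPM. Its relative Esrp2 fell by 1.76 (adjusted p = 0.00727). Grhl1 did not pass without day 7 replicate 2 (1.35, adjusted p = 0.0773). Of 6 tested mesenchymal regulators Snai1 rose, and Fn1 and Snai2 fell, beside the same shares of all genes tested. Snai1, a repressor known to bind E-boxes of Cdh1, was at 3.07 and 0.591 TPM at day 7, at 28.2, 34.4 and 30.2 TPM in 4F-mini-oocytes at day 21 and at 39.9 and 48.4 TPM in 8F-mini-oocytes (3.65 in 4F-mini-oocytes, SE 0.40, adjusted p = 0.000709). Snai2 went from 22.8 and 35.3 TPM to 6.44, 4.90 and 2.89 TPM in 4F-mini-oocytes (-2.41, adjusted p = 0.00333). Fn1, which encodes fibronectin, fell by 3.02 (adjusted p = 0.000316), and Vim, the mesenchymal filament gene, was at or below 0.145 TPM in every library.

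Against the same day 7 libraries, 8F-mini-oocytes at day 21 had calls in each of these lists except the other claudins (0 of 7 by limma at FDR 0.05). Over all genes tested, 37.2% were called in either direction. Cdh4 was higher by 3.52 (adjusted p = 0.000752), Patj by 2.20 (adjusted p = 0.000477), Grhl3 by 4.2 (adjusted p = 0.000204) and Snai1 by 4.14 (adjusted p = 0.000846). Lower genes were Dsp (-2.58, adjusted p = 0.000521), Fn1 (-3.62, adjusted p = 0.000358), F11r (-3.39, adjusted p = 0.0109) and Dlg1 (-1.42, adjusted p = 0.00107). The day 7 libraries are those of the first comparison. F11r did not pass without day 7 replicate 1 (adjusted p = 0.0512) or without 8F replicate 1 (adjusted p = 0.0773). Nectin2, an adhesion molecule that binds afadin, was lower by 2.12 (adjusted p = 0.00790, and 0.0534 without 8F replicate 1). Llgl2, a polarity gene related to Llgl1, was higher by 1.98 (adjusted p = 0.00415). In 4F-mini-oocytes Llgl2 was higher at day 21 than at day 7 by 0.95 (adjusted p = 0.0385), a call that was lost in 14 of 18 alternatives, among them all 3 other scalings.

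**Figure D4:**
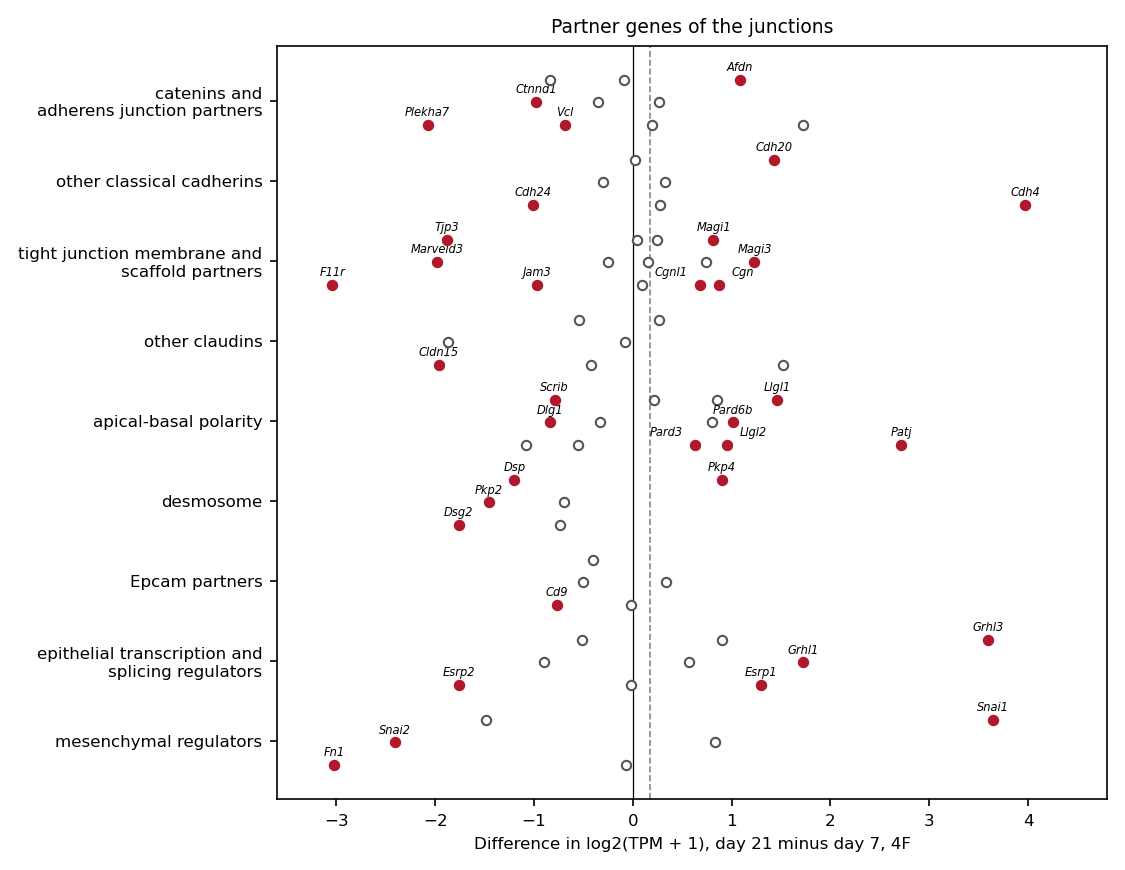
Change of partner genes from day 7 to day 21 in 4F-mini-oocytes, as the difference in log2(TPM + 1) on the horizontal axis, with 1 row for each list. Circles are genes tested, filled red circles with names passed FDR 0.05, and the dashed line marks the median of all genes tested (0.17). Calls lie on both sides of 0 in most lists, with Cdh4, Snai1 and Grhl3 at the right and F11r and Fn1 at the left.

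The 9 granulosa cell markers summed to 3.0 to 16.8 TPM over the 7 libraries, with Inha at 0 in all of them. None of the 4 tested was called between the days by limma at FDR 0.05, beside 40.6% of all genes tested in either direction. With median-of-ratios rescaling and with voom 1 of the 4 was called lower, and with quantile normalization 0 were called. Kitl, the gene of stem cell factor, was at -1.33 (adjusted p = 0.0543). The 8 fibroblast markers summed to 5.6 and 8.7 TPM at day 7 and to 0.3 to 1.7 TPM at day 21. The 10 pluripotent cell markers summed to 237.9 and 380.7 TPM at day 7, to 859.1 to 1048.4 TPM in 4F-mini-oocytes at day 21 and to 1197.6 and 1039.5 TPM in 8F-mini-oocytes, with Dppa5a the highest of them. Of the 6 tested 3 rose (Pou5f1, Esrrb and Dppa5a) and Zfp42 fell between the days, beside 25.3% and 15.3% of all genes tested. Tfcp2l1 was at 13.9 to 24.7 TPM over the 7 libraries with no call, and Nanog was at 0 in every day 21 library. Pou5f1, which growing oocytes also express, was at 24.4 and 30.1 TPM at day 7 and at 167.3, 154.2 and 267.0 TPM in 4F-mini-oocytes at day 21.

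The genes whose course over the 7 libraries was most like that of Cdh1 were Slx4, Cobll1 and Gm49369, with root-mean-square differences of 0.085, 0.103 and 0.111 in log2(TPM + 1) after each gene was centred on its mean. For Epcam they were Arih2, Spag9 and Gm45713, with differences of 0.062, 0.064 and 0.076. These were the smallest among the 10571 tested genes whose mean reached 10 TPM. Arih2 was at 70.3 and 63.2 TPM at day 7, at 34.1, 39.4 and 42.5 TPM in 4F-mini-oocytes at day 21 and at 26.4 and 27.1 TPM in 8F-mini-oocytes. The likeness is a description over 7 libraries that share their groups.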

How the data were processed

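Total RNA-seq libraries of 7 pooled mini-oocyte samples were used. The authors used Trim Galore! for trimming, Hisat2 for alignment to mm10 and Bedtools to take out rRNA, counted the unique alignments with featureCounts on GENCODE vM25 (paired reads, fractions for overlapping genes, no stated strand) and deposited TPM. The NovaSeq model used for each library is not given in the sources used here. Groups were taken from the sample titles. The authors tested counts with edgeR, which were not used here, so log2(TPM + 1) of the 21780 genes that reached 1 TPM in 2 or more libraries was fitted with limma 3.58.1 (R 4.3.3, eBayes with trend, 3 groups, no block), with two-sided p-values adjusted over all genes tested by the Benjamini-Hochberg method at FDR 0.05. On simulated reads 126 of 200 changed genes were recovered. Reads were recovered from the steps of low TPM values and the exon lengths of GENCODE vM21 (98.1% of genes matched), and floors of 3 reads cover counting error only. Coordinates are those of mm10.

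The members and lists were chosen with earlier results of these data known. All members are named. Other genes were to be named if they were among the 2 of a list with the highest mean. The same held for up to 2 per comparison and direction with the largest change, and for genes of other cell types at 10 TPM or more in a library. Some genes that met this rule are not named, among them Cdh8, Cd81 and Marveld2. Oocyte and fibroblast markers are given only as sums. Further genes (Magi1, Tjp3, Vcl, Vim, Inha, Nanog, Cdx2, Elf5, Eomes, Cldn9, Cldn20, Wbscr25) were named after their values were seen. Alternatives were other pseudocounts, filters, scalings and weights, fits of the compared groups alone, a replicate block, each library left out, and voom on recovered reads. Replicate numbers did not pair the samples (correlation of deviations -0.04 to 0.01). Protein sequences were not used here.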

Additional observations from a re-analysis of the deposited data

How the results depend on the processing

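Cldn6 and Epcam kept their direction and FDR 0.05 in all 18 alternatives, both between the days in 4F-mini-oocytes and in 8F-mini-oocytes against day 7. The cause of the differences below was not tested. Junction genes called between the days in 4F-mini-oocytes numbered 4 with voom (2 as reported, 2 to 3 with 1 library left out). Between 8F and 4F at day 21 they numbered 1 with a filter of 5 TPM, 3 with array weights (Tjp1, Cdh3 and Epcam), 1 in the fit of both groups alone and 1 with voom (0 as reported, 0 to 1 with 1 library left out). In 8F-mini-oocytes against day 7 they numbered 7 with voom, 7 with quantile normalization and 5 with median-of-ratios rescaling (2 as reported, 2 to 3 with 1 library left out). Over all genes, calls between 8F and 4F at day 21 went from 1822 to 994 without the trend and 3572 with array weights, and from 86 to 2231 with 1 library left out, at 86 and 98 without either 8F library. Against day 7 the 8F calls went from 8103 to 3642 to 8377 with 1 library left out, and the 4F calls from 8847 to 6472 to 8379. With the replicate numbers as a block the calls were 7241, 164 and 7037 in the 3 comparisons. Signs turned for the change in 4F-mini-oocytes of Ocln (-0.26 by median of ratios, -0.32 by quantiles, -0.46 with voom, -0.04 to 0.17 with 1 library left out), Tjp1 (-0.22, -0.49 and -0.41), Cdh1 (-0.26 with quantile normalization, -0.17 with voom), Cdh3 (-0.23 and -0.14) and Cldn4 (-0.40 to 0.15 with 1 library left out). Signs also turned for the 8F minus 4F difference of Cdh1 (0.02 with quantile normalization, 0.09 with voom, -0.23 to 0.15 with 1 library left out) and Cldn6 (-0.23 with quantile normalization, -0.11 with the block, -0.27 to 0.50 with 1 library left out), and for Cdh1 in 8F-mini-oocytes against day 7 (-0.24 and -0.07). Of the called genes of the lists, 36 of 55, 0 of 8 and 30 of 51 kept their call under every alternative run for them in the 3 comparisons, which numbered 15 to 18 per gene. These counts include markers of oocytes and of other cell types. In the first comparison every such marker kept its call, and all calls that were lost belonged to junction partners or to epithelial regulators. Leaving out 1 of 2 libraries left a group with a lone sample, which was assumed to vary like the others. At this depth Cldn3 and Cldn6 at day 21 lay near the level of 3 reads.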
